A study of Homo sapiens with 28 samples.

Results

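The genes described here are 38 known transcriptional targets of p53, with CDKN1A (p21) left out. They were chosen by name, with earlier results of these data known. All 38 were among the 25807 gene symbols of the RNA table, and all 38 were targeted in a pooled CRISPR screen that listed 19050 gene names, with 213 guide RNAs against them (4 to 6 per gene). Every sample came from U2OS, a human osteosarcoma cell line with wild-type p53, or from a p53 knockout (KO) derivative of it. Etoposide, the drug of the study, traps topoisomerase II on cut DNA and so causes double-strand breaks. The RNA libraries were of U2OS cells with wild-type p53 throughout: cells at the start (T0), and cells kept for 8 h in medium that other cells had conditioned. The donors of that medium were U2OS cells with wild-type p53 (WT) or p53 KO cells, each treated with DMSO, the solvent, or with 31.6 µM etoposide, and the media are called WT-DMSO, KO-DMSO, WT-etoposide and KO-etoposide medium. Each of these 5 groups had 2 libraries, A and B. In the screen, WT and p53 KO cells carried a genome-wide guide library, and guides were counted in genomic DNA at T0 and after 96 h in DMSO or in 5 µM etoposide, with 3 libraries, A, B and C, in each of 6 groups. The labels call the donors and screen cells without etoposide untreated in some fields and DMSO-treated in others. They do not say whether the p53 KO cells are 1 clone, how long the donors conditioned the medium, or whether etoposide was removed from it, so carried-over drug and products of the donor cells cannot be told apart.

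The protein p53 is a transcription factor held at low levels by its target MDM2 and, together with it, MDM4. DNA damage releases p53 from this control, and it then binds pairs of 10-base half-sites in DNA and switches on genes of cell cycle arrest, DNA repair, metabolism and cell death. U2OS cells keep this response, which is one reason for their wide use in the study of DNA damage.

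Binding sites were looked for in the promoter windows that RefSeq gives for build GRCh38.p14, from 250 bases before to 50 bases after the start of the gene. A window was there for 29 of the 38 members; PHLDA3, CMBL, GADD45A, ASCC3, TNFRSF10C, FBXO22, TP53INP1, RRM2B and TRIM22 had none. The p53 half-site, which reads the same on both strands, occurred in the windows of 7 of the 29 members (24.1%), namely RAP2B, PLK2, SESN1, DDB2, RPS27L, AEN and FDXR, and in 8.06% of the 27305 genes with a window. A full site was counted where 2 half-sites followed each other directly over 20 bases with at most 2 mismatches and with the C and the G of each core (CNNG) in place. The bases between that C and G could be mismatches, and a full site can overlap the single half-sites counted above. It occurred in 3 of the 29 members (10.3%) and in 0.359% of all genes. These sites are shown because the members that hold them are among those whose transcripts are described next; a match of letters is not a measured binding site.
DDB2: AAGCTGGTTTGAACAAGCCC
AEN: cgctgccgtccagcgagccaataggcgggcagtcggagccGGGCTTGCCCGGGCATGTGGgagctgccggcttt
DCP1B: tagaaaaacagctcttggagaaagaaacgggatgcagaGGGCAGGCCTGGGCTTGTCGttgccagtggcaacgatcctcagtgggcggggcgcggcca
The capitals mark the full site, and each sequence runs 5′ to 3′ on the strand of the gene. The DDB2 site, at chr11:47214969-47214988 on the plus strand, had 1 mismatch and lay across the start, from position -5 to 15 relative to it. The AEN stretch, at chr15:88621266-88621339 on the plus strand, held a site with 2 mismatches at positions -34 to -15. The DCP1B stretch, at chr12:2004610-2004707 on the minus strand, held one with 2 mismatches at positions -212 to -193.

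Total counts per library ran from 16825669 to 20290764 in the RNA and from 30437296 to 48230735 in the screen. Libraries A and B of the KO-DMSO medium stood further apart than those of any other RNA group (chi-square per degree of freedom of 14.9, against 2.03 to 5.87 elsewhere), and results that rest on them are also given without one of them. In the screen, library C of etoposide-treated p53 KO cells stood furthest from its replicates (17.2 against both, and 2.8 to 10.6 for all other pairs). COL1A1, VIM, SPARC and FN1, which mark mesenchymal cells, were high in all 10 libraries, and the osteoblast genes RUNX2 and ALPL were detected; TWIST1 was at 0 and COL1A2 between 0.076 and 0.234 RPKM (reads scaled to gene length and library size). The summed level of the 8 mesenchymal and osteoblast markers was 3090 to 3809 RPKM across the libraries, that of 6 epithelial markers 603 to 948 RPKM, nearly all of it KRT8 and KRT18, and that of 5 blood markers at most 0.19 RPKM. The p53 KO cells themselves were not among the RNA libraries, so their lack of p53 transcript was not checked. Whether A, B and C were separate cultures is not stated in the labels, and p-values here therefore measure only how far these samples spread, which may be technical.

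In recipients of etoposide medium, p53 targets of every role rose. Against WT-DMSO medium, WT-etoposide medium raised 34 of the 37 members that passed the filter on low counts (91.9%), and lowered 0, with edgeR's quasi-likelihood test at an adjusted p of 0.05. Of all 15391 genes tested, 16.1% were called higher and 18.5% lower. The median change of the members was 1.06 on the log2 scale, beside 0.01 for all genes. Against KO-DMSO medium, KO-etoposide medium raised 36 of 37 (97.3%) and lowered 0, beside 18.8% of all genes higher and 18.4% lower, and the members' median was 0.96 beside -0.01. At an unadjusted p of 0.05, 35 and 36 members were higher and 0 lower, where 43.7% and 45.6% of all genes passed in either direction. DESeq2 called 33 and 35 members higher and 0 lower; its share of all genes is not given here. In bulk RNA, more cells that express a gene and more RNA per cell cannot be told apart. The direct p53 targets outside the list moved likewise: CDKN1A rose by 2.01 ± 0.09 (log2 fold change ± SE) and 2.35 ± 0.09 in the WT-donor and KO-donor comparisons and MDM2 by 1.40 ± 0.08 and 1.60 ± 0.08.

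**Figure D1:**
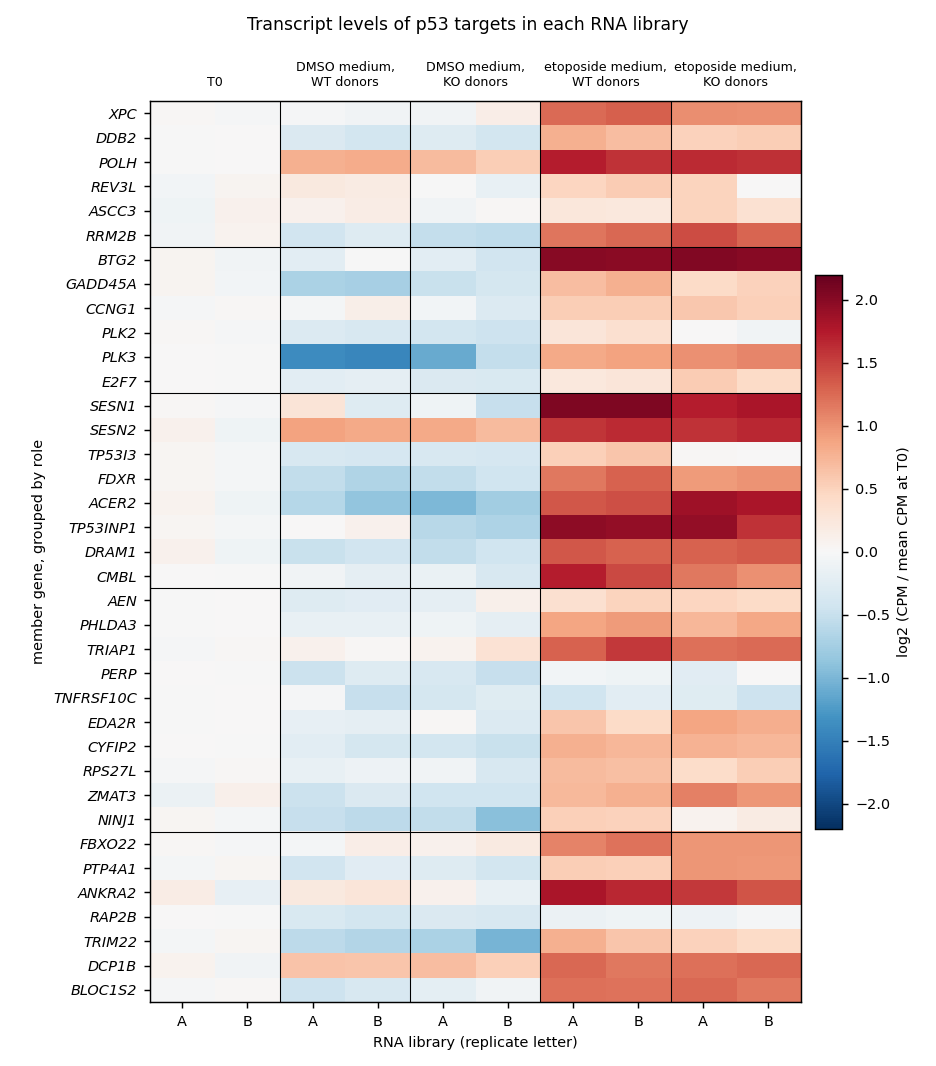
Level of 37 p53 targets in each of the 10 RNA libraries, as the log2 ratio of CPM (counts scaled to library size) to the gene's mean at T0; rows are genes in blocks of DNA repair, cell cycle, metabolism, cell death and other roles, columns are libraries A and B of each group, and SPATA18 is left out because it had at most 1 read in a library. All 4 etoposide-medium columns are red for most rows, and POLH, SESN2 and DCP1B are red in the DMSO media too.

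Among the 6 genes of DNA repair and nucleotide supply, 4 rose with WT-etoposide medium and 6 with KO-etoposide medium. RRM2B encodes the p53-induced small subunit of ribonucleotide reductase, which makes the building blocks of DNA. Its level was 86.5 and 95.7 CPM in libraries A and B at T0, 68.2 and 74.9 in WT-DMSO, 63.6 and 61.8 in KO-DMSO, 207 and 218 in WT-etoposide and 246 and 221 in KO-etoposide medium. The etoposide and DMSO libraries did not overlap, and the log2 changes were 1.57 ± 0.08 (adjusted p = 5.25e-11) and 1.90 ± 0.08 (adjusted p = 2.82e-12). XPC, the damage sensor of nucleotide excision repair, had 47.6 and 46.1 CPM in WT-DMSO, 46.0 and 53.4 in KO-DMSO, 116 and 121 in WT-etoposide and 98.2 and 97.3 in KO-etoposide medium. Its rise was 1.34 ± 0.08 and 0.98 ± 0.08, again with no overlap. DDB2, which binds ultraviolet lesions and holds the promoter site with the single mismatch, went from 99.3 and 93.0 CPM to 212 and 198 CPM with WT donors and from 101.5 and 92.9 to 175 and 180.2 CPM with KO donors (1.09 ± 0.07 and 0.87 ± 0.07). POLH, the DNA polymerase that copies past ultraviolet lesions, rose from 103.5 and 106 CPM to 199.6 and 181 CPM with WT donors and from 97.3 and 87.0 to 188 and 182 CPM with KO donors. REV3L, the catalytic subunit of another translesion polymerase, and ASCC3, a helicase of alkylation repair, were the 2 genes that passed only with KO donors. REV3L changed by 0.31 ± 0.12 (adjusted p = 0.0515) and 0.36 ± 0.12 (adjusted p = 0.0285), and ASCC3 by 0.12 ± 0.08 (adjusted p = 0.301) and 0.44 ± 0.08 (adjusted p = 0.000395). The difference between the donors was not called for either gene (adjusted p = 0.916 and 0.152), and REV3L with KO donors was no longer called without KO-DMSO library B (adjusted p = 0.0884) or without KO-etoposide library A (adjusted p = 0.629).

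All 6 genes of cell cycle and growth arrest rose in both comparisons. BTG2, an antiproliferative protein that promotes the decay of mRNA, had 52.2 and 47.4 CPM at T0, 42.4 and 49.4 in WT-DMSO, 42.6 and 37.4 in KO-DMSO, 199.8 and 198 in WT-etoposide and 204 and 200.0 in KO-etoposide medium. Its 4 etoposide libraries lay between 198 and 204 CPM, far above every other library. The change was 2.11 ± 0.09 (adjusted p = 3.22e-12) with WT donors and 2.33 ± 0.09 (adjusted p = 4.75e-13) with KO donors. PLK3, a stress-responsive polo-like kinase, stood at 51.1 and 50.8 CPM at T0, 19.6 and 18.9 in WT-DMSO, 23.6 and 35.3 in KO-DMSO, 90.9 and 94.4 in WT-etoposide and 103 and 108 in KO-etoposide medium. It was lower in all 4 DMSO-medium libraries than at T0, and its log2 changes with etoposide medium, 2.27 ± 0.12 and 1.83 ± 0.12, are measured from that lower level. GADD45A, a stress protein of cell cycle arrest and repair, rose from 42.0 and 41.1 CPM to 108 and 117 CPM with WT donors and from 48.4 and 52.1 to 90.4 and 96.0 CPM with KO donors (1.44 ± 0.08 and 0.89 ± 0.08). Smaller rises were those of the kinase PLK2 (0.63 ± 0.07 and 0.40 ± 0.07), of cyclin G1, CCNG1 (0.49 ± 0.08 and 0.74 ± 0.08), and of the repressor E2F7 (0.46 ± 0.07 and 0.82 ± 0.07).

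The 8 genes of metabolism, redox control and autophagy had the highest medians, 1.81 with WT donors and 1.63 with KO donors, and all 8 rose in both. ACER2, an alkaline ceramidase of the Golgi, was measured at 5.1 and 4.5 CPM at T0, 3.1 and 2.6 in WT-DMSO, 2.4 and 2.8 in KO-DMSO, 12.4 and 12.8 in WT-etoposide and 17.5 and 16.7 in KO-etoposide medium. It rose by 2.13 ± 0.15 and 2.70 ± 0.15, the largest change of any member with KO donors. SESN1, a sestrin that restrains the growth regulator mTORC1 under stress, had 12.3 and 8.3 CPM in WT-DMSO, 9.5 and 7.1 in KO-DMSO, 42.1 and 42.0 in WT-etoposide and 33.6 and 35.4 in KO-etoposide medium (2.02 ± 0.14 and 2.06 ± 0.14). TP53INP1, a stress-induced protein of autophagy and cell death, moved from 11.4 and 12.1 CPM to 44.2 and 43.2 CPM with WT donors and from 7.4 and 7.0 to 43.3 and 34.1 CPM with KO donors (1.89 ± 0.11 and 2.42 ± 0.12). In none of these 3 genes did an etoposide library come near the DMSO libraries. FDXR, the mitochondrial ferredoxin reductase, rose from 54.1 and 49.8 CPM to 177 and 193 CPM with WT donors and from 54.2 and 58.3 to 150.3 and 157 CPM with KO donors (1.83 ± 0.08 and 1.45 ± 0.08). TP53I3, a quinone oxidoreductase, had 81.8 and 77.8 CPM at T0, 62.5 and 61.7 in WT-DMSO, 62.5 and 61.7 in KO-DMSO, 115 and 122 in WT-etoposide and 81.1 and 80.0 in KO-etoposide medium. Its KO-etoposide libraries were thus at the level of T0, and its rise was 0.94 ± 0.07 with WT donors and 0.38 ± 0.07 with KO donors. DRAM1, a lysosomal protein of autophagy, rose by 1.79 ± 0.10 and 1.82 ± 0.10, CMBL, a hydrolase, by 1.73 ± 0.11 and 1.33 ± 0.12, and the second sestrin, SESN2, by 0.75 ± 0.08 and 0.86 ± 0.08.

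Of the 11 genes of cell death and survival, 10 passed the filter and the same count of 9 rose with either donor. PHLDA3, which competes with the survival kinase AKT for membrane lipids, was the member with the highest level per transcript length at T0, 99.6 RPKM. It went from 145 and 144 CPM to 295 and 309 CPM with WT donors and from 152 and 141 to 270 and 294 CPM with KO donors (1.06 ± 0.07 and 0.94 ± 0.07). TRIAP1, a mitochondrial lipid-transfer factor that favours survival, rose by 1.37 ± 0.10 and 1.03 ± 0.10, and ZMAT3, an RNA-binding regulator of splicing, by 1.13 ± 0.09 and 1.48 ± 0.09. CYFIP2, NINJ1, which ruptures the membrane of dying cells, RPS27L, EDA2R, a receptor of the tumour necrosis factor family, and the nuclease AEN rose by 0.68 to 1.06 with WT donors and by 0.49 to 1.20 with KO donors. PERP, a desmosomal membrane protein, changed least of the called genes of cell death and survival, by 0.30 ± 0.11 (adjusted p = 0.0382) and 0.31 ± 0.11 (adjusted p = 0.0309), and DESeq2 called it in neither comparison (adjusted p = 0.0768 and 0.0649). TNFRSF10C, a decoy receptor for the death ligand TRAIL, had 26 to 36 reads in each library and changed by -0.09 ± 0.28 (95% interval -0.69 to 0.50) and -0.03 ± 0.29 (-0.63 to 0.57). SPATA18, a mitochondrial quality-control gene, had 1 read in WT-DMSO library A, 1 in WT-etoposide library A and 0 in the other 8 libraries. In those 8, 0 reads allow a level of up to 0.148 to 0.178 CPM (3 counts, counting error only), and a library with 1 read allows more. TNFRSF10C and RPS27L have close paralogs, and how reads shared with them were counted is not given in the sources used here.

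The 7 remaining targets all rose with either donor. BLOC1S2, a subunit of complexes that position lysosomes, rose by 1.61 ± 0.09 and 1.36 ± 0.09, and ANKRA2, an ankyrin repeat protein, by 1.49 ± 0.14 and 1.50 ± 0.14. FBXO22, a substrate receptor of a ubiquitin ligase, had 27.5 and 31.2 CPM in WT-DMSO, 30.1 and 32.2 in KO-DMSO, 60.0 and 64.9 in WT-etoposide and 55.6 and 55.1 in KO-etoposide medium (1.09 ± 0.09 and 0.83 ± 0.09). PTP4A1, a phosphatase of growth control, had 206 and 216 CPM at T0, 157 and 178 in WT-DMSO, 173 and 159 in KO-DMSO, 307 and 304 in WT-etoposide and 413 and 408 in KO-etoposide medium. It was highest in the KO-etoposide libraries, with rises of 0.87 ± 0.08 and 1.30 ± 0.08. TRIM22, an antiviral ubiquitin ligase, rose by 1.31 ± 0.11 and 1.32 ± 0.11, the decapping factor DCP1B by 0.60 ± 0.08 and 0.63 ± 0.08, and the small GTPase RAP2B by 0.26 ± 0.07 and 0.27 ± 0.07. RAP2B lost its call without WT-DMSO library B (adjusted p = 0.0799), WT-etoposide library B (adjusted p = 0.0606) or KO-etoposide library B (adjusted p = 0.0661). The PERP call was lost without WT-DMSO library A, either WT-etoposide library, or library B of KO-DMSO or KO-etoposide medium (adjusted p = 0.104 to 0.341).

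**Figure D2:**
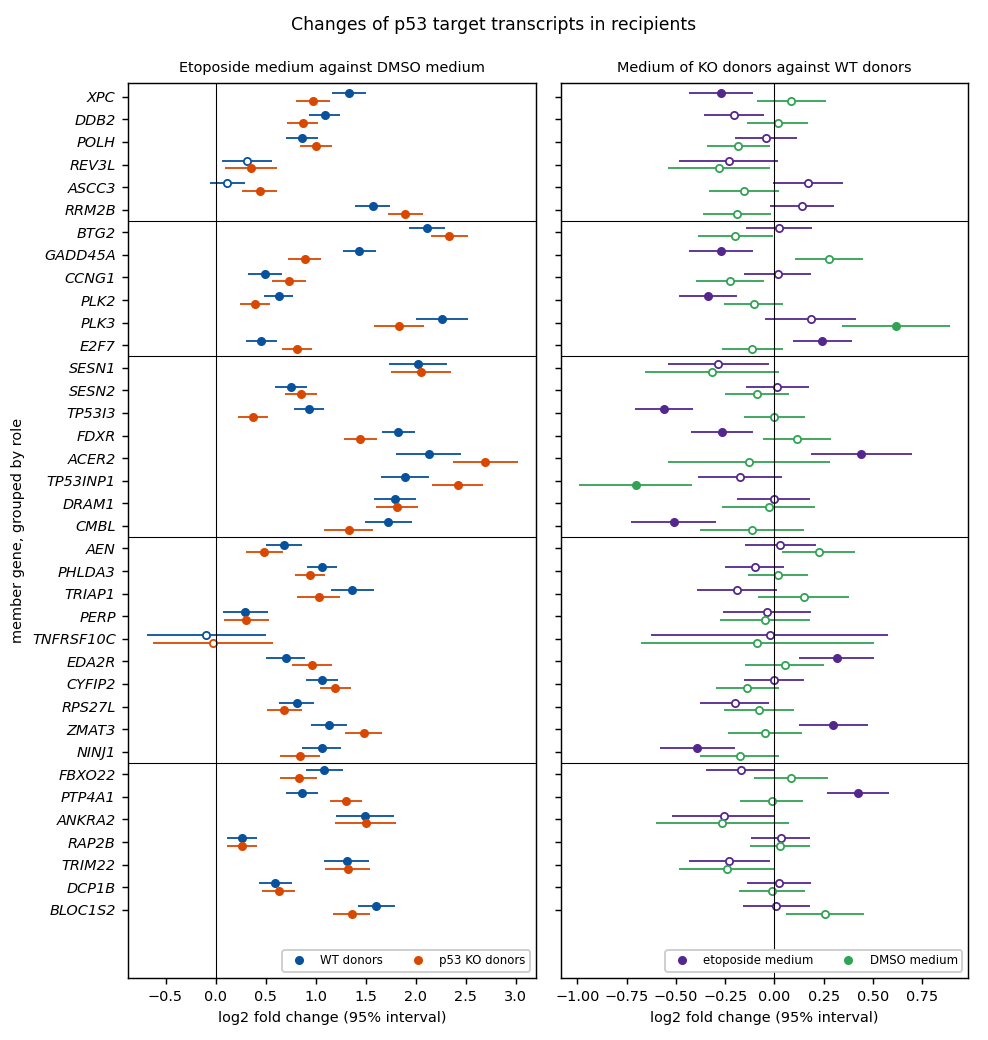
Log2 fold change with its 95% interval for 37 p53 targets: on the left, etoposide medium against DMSO medium for WT donors (blue) and p53 KO donors (orange); on the right, medium of KO donors against that of WT donors, for etoposide (purple) and DMSO (green). Filled points passed an adjusted p of 0.05, and black lines separate the role groups. On the left nearly all points lie to the right of 0, from 0.26 for RAP2B to 2.70 for ACER2 among those called; on the right they lie on both sides of 0.

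Other genes of the pathway were followed by lists that, like the members, were chosen with earlier results of these data known. Their counts stand beside 16.1% of all genes higher and 18.5% lower with WT donors and 18.8% and 18.4% with KO donors. Of 12 measured p53 targets of apoptosis, 8 rose and 0 fell with WT donors and 8 rose and 1 fell with KO donors; the death receptor FAS rose by 2.53 ± 0.09 and 2.75 ± 0.09 and BBC3 (PUMA) by 2.10 ± 0.10 and 1.71 ± 0.10. The gene that fell with KO donors was the caspase CASP6 (-0.59 ± 0.23, adjusted p = 0.0456), which DESeq2 did not call; at an unadjusted p of 0.05, 0 of the 12 were lower with WT donors. Of 9 measured targets that encode secreted proteins, 7 rose and 1 fell with WT donors and 6 rose and 1 fell with KO donors. The stress cytokine GDF15 rose by 5.32 ± 0.18 and 5.31 ± 0.17, and INHBE, an inhibin subunit, fell by 1.72 ± 0.33 and 2.67 ± 0.39. Of 15 measured genes for p53 and its regulators, 3 rose and 8 fell, then 5 rose and 6 fell; the phosphatase PPM1D, which switches the response off, rose by 1.28 ± 0.07 and 1.32 ± 0.08. Among 20 cell cycle genes known to be repressed through p53, p21 and the DREAM complex, 0 rose and 17 fell with WT donors (median -1.11) and 0 rose and 18 fell with KO donors (median -1.16). At an unadjusted p of 0.05 and with DESeq2, 0 of these 20 were higher with either donor. PLK1, a mitotic kinase, fell by 2.68 ± 0.09 and 2.83 ± 0.09.

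The profiles of the members over the 10 libraries resembled each other, as a description that rests largely on the split between etoposide media and the rest. For BTG2, FDXR and RRM2B, the members with the 3 smallest p in the WT-donor comparison, the median Pearson r of log2 CPM with the other 36 members was 0.951, 0.939 and 0.942. The genes most like BTG2 among 15390 were GREB1 (r = 0.996), MDM2 (0.996) and CDKN1A (0.993). For FDXR they were PVRL4 (0.996), FAM84A (0.993) and ZFPM1 (0.993), and for RRM2B they were CDKN1A (0.993), PLEKHA1 (0.991) and the member ZMAT3 (0.991). The 10 points are 5 pairs of libraries.

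The levels of 12 members in etoposide medium differed with the p53 genotype of the donor, in both directions. With KO-etoposide against WT-etoposide medium, 5 of 37 members were higher (13.5%) and 7 lower (18.9%), beside 8.5% and 5.57% of all genes, and the members' median was -0.04. Lower were TP53I3 (-0.56 ± 0.07, adjusted p = 5.52e-05), CMBL (-0.51 ± 0.10), NINJ1 (-0.39 ± 0.09), PLK2 (-0.34 ± 0.07), XPC (-0.27 ± 0.08), GADD45A (-0.27 ± 0.08) and FDXR (-0.27 ± 0.07). Higher were ACER2 (0.44 ± 0.12), PTP4A1 (0.42 ± 0.07, adjusted p = 0.000998), EDA2R (0.32 ± 0.09), ZMAT3 (0.30 ± 0.08) and E2F7 (0.24 ± 0.07). These 12 genes were chosen by a test on the same libraries, so a lack of overlap among them is no further support. In each, the 2 libraries of 1 medium lay above both libraries of the other. CMBL, for example, had 48.1 and 40.0 CPM in WT-etoposide and 32.7 and 29.2 CPM in KO-etoposide medium, and NINJ1 had 175 and 172 CPM against 128 and 137 CPM. The largest of the 12 changes, that of TP53I3, was 1.48-fold. The authors' deposited table of this comparison gave 4 members as higher and 7 as lower, with the same sign as here for these 11; it left out ACER2 (adjusted p = 0.0956 in the authors' deposited table). Without any 1 of the 4 libraries, 3 to 6 members were called in place of 12 (8.11% to 16.2%), beside 4.93% to 6.7% of all genes in place of 14.1%. TP53I3 and PTP4A1 kept their call each time; CMBL lost it without WT-etoposide library A (adjusted p = 0.0771) or KO-etoposide library B (adjusted p = 0.0559), and PLK2 without library B of either medium (adjusted p = 0.0571 and 0.0524). The other 8 each lost theirs without at least 3 of the 4 libraries in turn.

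**Figure D3:**
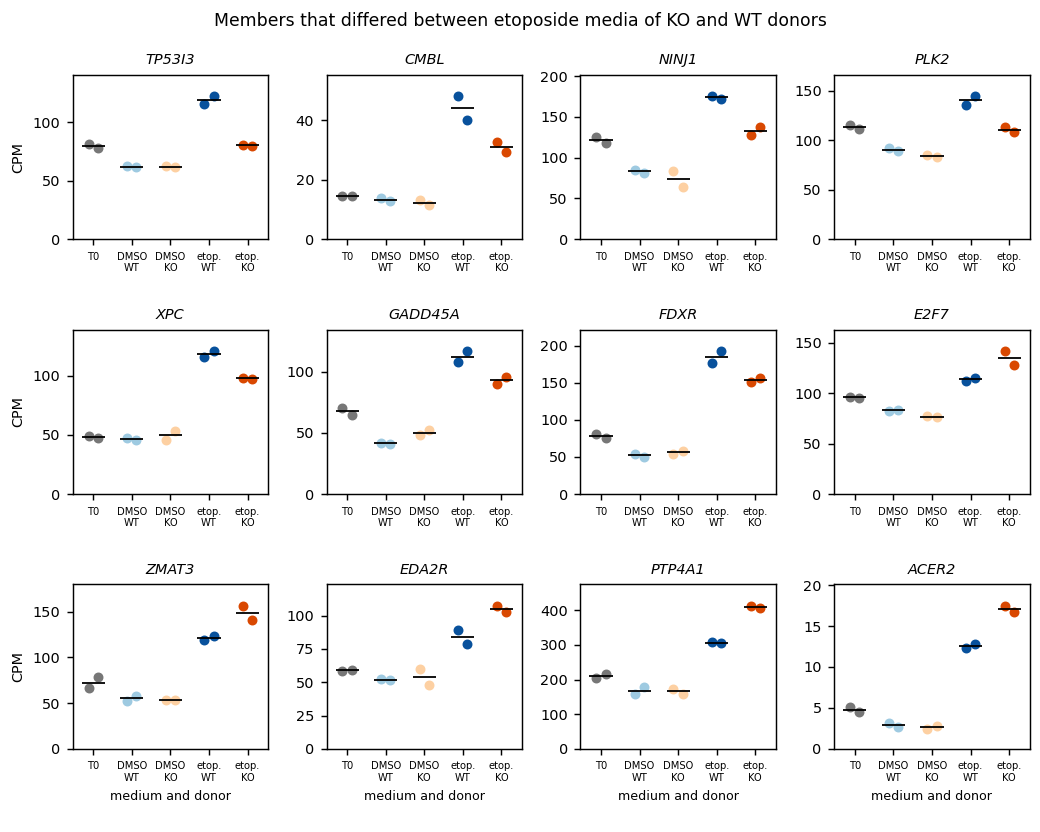
Level in CPM of the 12 members that differed between KO-etoposide and WT-etoposide medium, in each library; points are libraries A and B, bars are means of the 2, and the x axis gives the medium and its donor. The 7 genes that were lower with KO donors come first, with TP53I3 at 81.1 and 80.0 CPM against 115 and 122 CPM, and the 5 higher ones last.

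After DMSO medium, 2 members differed with the genotype of the donor. With KO-DMSO against WT-DMSO medium, 1 member was higher and 1 lower (2.70% each), beside 0.793% and 0.767% of all genes. TP53INP1 was lower (7.4 and 7.0 CPM against 11.4 and 12.1 CPM, -0.70 ± 0.14, adjusted p = 0.0266) and PLK3 higher (23.6 and 35.3 CPM against 19.6 and 18.9 CPM, 0.62 ± 0.13, adjusted p = 0.0294). Without KO-DMSO library A, 10 members were called (27.0%), TP53INP1 and PLK3 among them, beside 19.3% of all genes. Without KO-DMSO library B or either WT-DMSO library 0 members were called, beside 0% to 0.0698% of all genes. The TP53INP1 difference was then -0.75 to -0.66 (adjusted p = 0.145 to 0.253). That of PLK3 was 0.64 and 0.59 without WT-DMSO library A and B (adjusted p = 0.263 and 0.225) and 0.30 without KO-DMSO library B (adjusted p = 0.336). AEN (0.22 ± 0.09, adjusted p = 0.165), BLOC1S2 (0.26 ± 0.09, adjusted p = 0.142) and POLH (-0.18 ± 0.08, adjusted p = 0.195) were not called with all libraries and were called without KO-DMSO library A.

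The test of the difference itself, the rise with KO donors minus the rise with WT donors, called 1 member higher (2.70%) and 2 lower (5.41%), beside 1.5% and 0.617% of all genes. The TP53I3 rise was smaller with KO donors by 0.56 on the log2 scale (-0.56 ± 0.10, adjusted p = 0.0104) and that of GADD45A by nearly as much (-0.55 ± 0.11, adjusted p = 0.0173). The PTP4A1 rise was larger (0.44 ± 0.11, adjusted p = 0.0393). For TP53I3 the DMSO levels were 62.5 and 61.7 CPM with either donor and the etoposide levels differed. For GADD45A the KO-DMSO libraries lay above the WT-DMSO libraries (0.28 ± 0.08, adjusted p = 0.0787) and the KO-etoposide libraries below the WT-etoposide libraries (-0.27 ± 0.08, adjusted p = 0.0239). These calls rest on single libraries: 0 members were called without either WT-DMSO library, without WT-etoposide library B or without KO-etoposide library A, whereas 11 were called without KO-DMSO library A (29.7%) and 6 without KO-DMSO library B (16.2%). Of all genes, 0.19% to 0.292% were called in the former cases, 10.5% without KO-DMSO library A and 6.86% without KO-DMSO library B, in place of 2.12%. PTP4A1 also lost its call without WT-etoposide library A (adjusted p = 0.0947) or KO-etoposide library B (adjusted p = 0.0743). Where the calls were lost, the estimates lay between -0.59 and -0.49 for TP53I3 and GADD45A and between 0.34 and 0.53 for PTP4A1.

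Medium conditioned by DMSO-treated cells was itself followed by lower levels of many members than at T0. With WT-DMSO medium against T0, 3 of 37 members were higher (8.11%) and 19 lower (51.4%), beside 17.8% and 17.6% of all genes, and the members' median was -0.24 beside 0.00. With KO-DMSO medium the counts were again 3 and 19, beside 18.1% and 18.7% of all genes, and the median -0.33. The T0 libraries are in both comparisons, and the DMSO-medium libraries are also the reference of the etoposide comparisons above. The 3 members that rose were the same with either donor. SESN2 had 71.9 and 63.6 CPM at T0 against 125 and 121 in WT-DMSO and 121 and 109.8 in KO-DMSO medium (0.86 ± 0.08 and 0.77 ± 0.08). POLH had 59.3 and 60.5 CPM at T0 against 103.5 and 106 and 97.3 and 87.0 CPM (0.80 ± 0.08 and 0.62 ± 0.08), and DCP1B rose by 0.62 ± 0.08 and 0.60 ± 0.08. These 3 genes were higher still in etoposide medium than in DMSO medium, as given above. PLK3 fell most with WT donors (-1.41 ± 0.13), and with KO donors it fell by 0.79 ± 0.12. ACER2 fell by 0.74 ± 0.18 and 0.87 ± 0.18, TRIM22 by 0.61 ± 0.11 and 0.85 ± 0.11, NINJ1 by 0.54 ± 0.09 and 0.72 ± 0.09, and GADD45A by 0.71 ± 0.08 and 0.43 ± 0.08. The groups hold no cells kept in fresh medium for 8 h.

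In the screen, the guides against 7 of the 38 members changed in share in at least 1 of the comparisons of the edgeR fit with all libraries (18.4%), beside 14.2% of all 19050 genes. Those against the other members passed no gene-level test in that fit. Guide counts were summed per gene and tested in 1 fit of 18 libraries; no listed guide had a mean count below 62.6, so rarely counted guides do not enter. In WT cells, etoposide against DMSO raised the guides of 2 members (5.26%) and lowered those of 0, beside 1.89% and 0.294% of all genes, and the members' median was 0.00. In p53 KO cells it raised those of 1 (2.63%) and lowered those of 0, beside 2.99% and 1.23%, with a median of 0.01. At an unadjusted p of 0.05, 6 members passed in WT and 6 in KO cells, where 13.0% and 17.1% of all genes did. The members' 95% intervals ran from -0.24 to 0.34 in WT and from -0.23 to 0.36 in KO cells, so larger changes in either direction lie outside the interval of each member. For scale, guides against CDKN1A fell with etoposide in WT cells by 0.48 ± 0.06 (adjusted p = 4.23e-10), and in KO cells they changed by -0.17 ± 0.06 (adjusted p = 0.0681). The CDKN1A difference between the cell lines (KO minus WT), 0.31 ± 0.08, was not called (adjusted p = 0.109).

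FBXO22 and PTP4A1 were the 2 members whose guides rose with etoposide in WT cells. Summed FBXO22 guides made up 52.9, 50.7 and 51.8 CPM in DMSO libraries A, B and C and 58.6, 60.1 and 58.3 CPM in the etoposide libraries, so the groups did not overlap. At T0 they made up 56.9, 54.7 and 55.2 CPM, so the DMSO libraries lay below T0 and the etoposide libraries above it. The change from DMSO to etoposide was 0.19 ± 0.05 (adjusted p = 0.0192), and 5 of 5 guides were higher. In KO cells the values were 53.5, 55.9 and 59.1 CPM against 56.4, 61.5 and 55.7 CPM (0.04 ± 0.05, adjusted p = 0.739). PTP4A1 guides stood at 36.9, 34.6 and 41.9 CPM in DMSO and 42.7, 46.7 and 42.1 CPM in etoposide (0.21 ± 0.06, adjusted p = 0.0375, 5 of 5 guides higher), with the highest DMSO library just below the lowest etoposide library. SESN1 guides had the next smallest p and went the other way, from 75.1, 74.9 and 75.2 CPM to 70.4, 66.6 and 66.8 CPM (-0.15 ± 0.05, adjusted p = 0.0698, 6 of 6 guides lower); DESeq2 called SESN1 (adjusted p = 0.024) and not PTP4A1 (adjusted p = 0.0591). The FBXO22 call was lost without WT-DMSO library B or any 1 of the WT etoposide libraries (adjusted p = 0.0534 to 0.122), and the PTP4A1 call without WT-DMSO library A or B or any 1 of the etoposide libraries (adjusted p = 0.0507 to 0.322). With limma on mean log2 CPM of guides FBXO22 was not called (0.16, adjusted p = 0.105), and with only the libraries compared in the fit PTP4A1 was not (adjusted p = 0.0641). With libraries scaled to the 999 non-targeting guides, the split of all genes moved from 360 higher and 56 lower to 976 higher and 17 lower, and the same count of 2 members was higher.

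TRIAP1 was the member that rose with etoposide in p53 KO cells. Its guides made up 50.2, 53.9 and 50.3 CPM at T0, 48.1, 43.3 and 47.6 CPM in DMSO and 59.4, 56.1 and 49.6 CPM in etoposide. The change from DMSO to etoposide was 0.25 ± 0.06 (adjusted p = 0.00177), with 5 of 6 guides higher, 1 of them by 0.0002. Every DMSO library lay below the T0 libraries, so the rise is measured from that lower level, and etoposide library C also lay below T0. Library A of the etoposide group was the highest, and without it the change was 0.19 and not called (adjusted p = 0.0757); without library C, which stood apart, it was 0.32 (adjusted p = 0.000117). In WT cells TRIAP1 changed by 0.09 ± 0.06 (adjusted p = 0.514). The difference between the 2 cell lines, 0.16 ± 0.08, was not called (adjusted p = 0.487). Over all members, edgeR called 0 differences of the etoposide effect between KO and WT cells, as did DESeq2 and limma, beside 0.0262% of all genes higher and 0.0262% lower; 6 members passed an unadjusted p of 0.05, beside 10.2% of all genes, led by SESN1 (0.21 ± 0.06, adjusted p = 0.176). At the level of single guides, 0 of the 213 were called in either cell line with etoposide, beside 0.372% of all 109367 guides in WT and 0.841% in KO cells. An unadjusted p below 0.05 was found for 27 of them in WT (12.7%) and 20 in KO cells (9.39%), beside 9.33% and 12.4% of all guides.

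**Figure D4:**
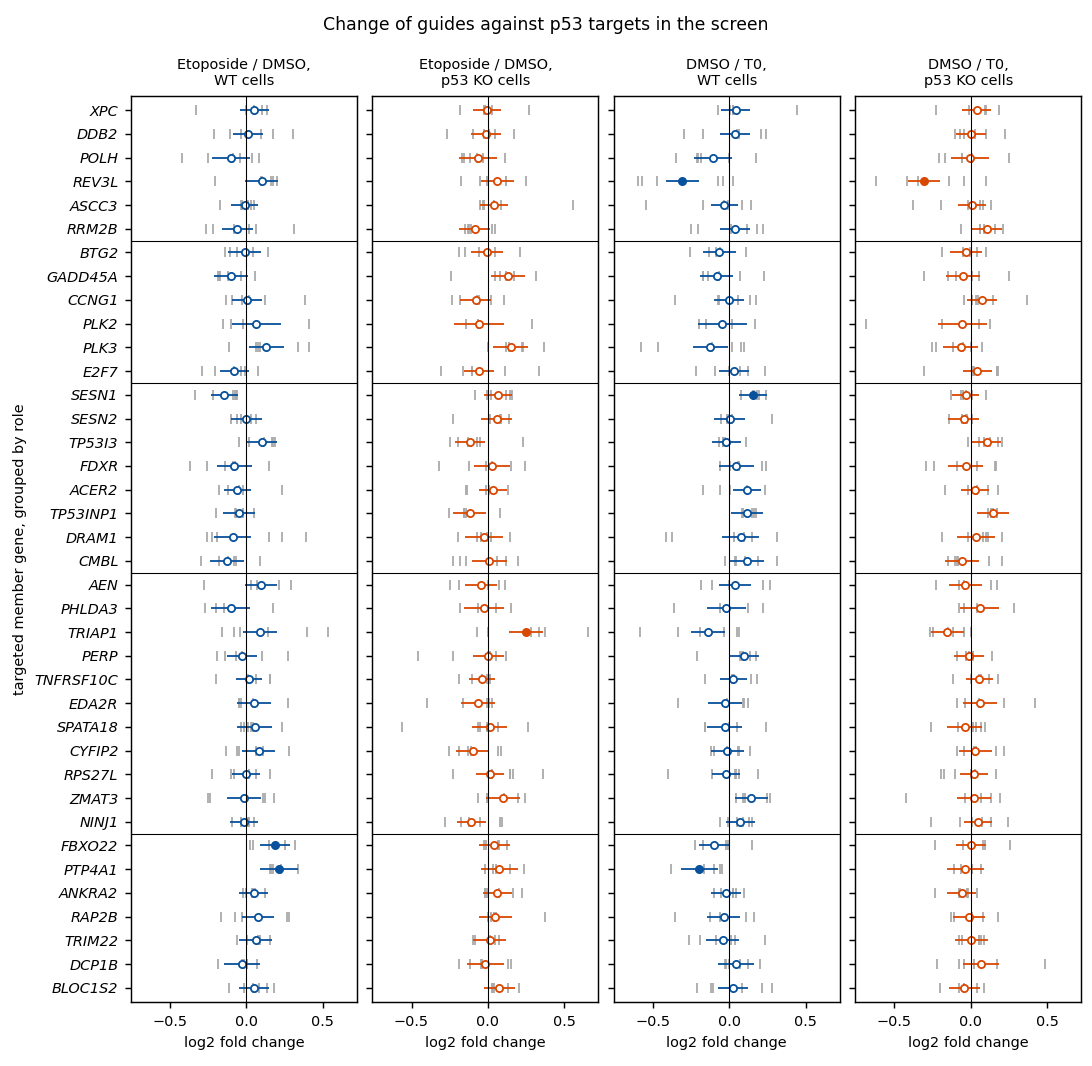
Log2 fold change of the summed guides against each of the 38 members, with its 95% interval, for etoposide against DMSO and for DMSO against T0 in WT (blue) and p53 KO cells (orange); grey ticks are single guides, and filled points passed an adjusted p of 0.05. The called genes are FBXO22 and PTP4A1 in the first column, TRIAP1 in the second, REV3L, SESN1 and PTP4A1 in the third and REV3L in the last.

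In growth without drug, DMSO at 96 h against T0, REV3L was the only member called in both cell lines. Its guides fell in both cell lines, from 49.9, 51.0 and 47.6 CPM to 40.0, 39.3 and 40.5 CPM in WT cells and from 51.1, 52.2 and 52.4 CPM to 42.3, 41.8 and 41.9 CPM in KO cells. No T0 library overlapped a DMSO library. The falls were of the same size, -0.31 ± 0.05 (adjusted p = 1.14e-05) and -0.31 ± 0.05 (adjusted p = 2.95e-05), with 5 of 6 guides lower in each. The guides were uneven: in WT cells 3 of them changed by -0.60, -0.57 and -0.47 and the other three by -0.07 to 0.02, and 2 of the 6 were called singly. In WT cells, 1 member was higher (2.63%) and 2 lower (5.26%), beside 1.12% and 5.42% of all genes. SESN1 guides rose from 64.6, 69.1 and 68.4 CPM to 75.1, 74.9 and 75.2 CPM (0.16 ± 0.05, adjusted p = 0.0189, 6 of 6 guides higher), and PTP4A1 guides fell from 45.6, 42.6 and 42.0 CPM to 36.9, 34.6 and 41.9 CPM (-0.20 ± 0.06, adjusted p = 0.033, 5 of 5 lower). The DMSO libraries of WT cells thus lay above both T0 and etoposide for SESN1 and below both for PTP4A1, and they enter both comparisons. Without T0 library A, REV3L alone was called; SESN1 also lost its call without DMSO library A (adjusted p = 0.052), and PTP4A1 without T0 library B or DMSO library A or B (adjusted p = 0.0669 to 0.247) or with limma on mean log2 CPM of guides (-0.17, adjusted p = 0.111). ZMAT3 was called without DMSO library A (0.23, adjusted p = 0.00629). In KO cells, 0 members were higher and 1, REV3L, lower (2.63%), beside 0.436% and 2.99% of all genes, and the guides of SESN1 and PTP4A1 changed by -0.03 ± 0.05 and -0.04 ± 0.06 there. The difference between KO and WT cells was called for 0 members by edgeR, DESeq2 or limma, beside 0.00525% of all genes higher and 0% lower, and 2 members passed an unadjusted p of 0.05, beside 7.71% of all genes. Scaling to the non-targeting guides moved the split of all genes from 214 higher and 1033 lower to 19 and 3035 in WT cells and from 83 and 569 to 14 and 1572 in KO cells. Of the members, 0 were then higher and 6 lower in WT cells (REV3L, PTP4A1, TRIAP1, PLK3, POLH and FBXO22), SESN1 no longer being called (0.09, adjusted p = 0.175), and 2 were lower in KO cells, REV3L and TRIAP1.

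**Figure D5:**
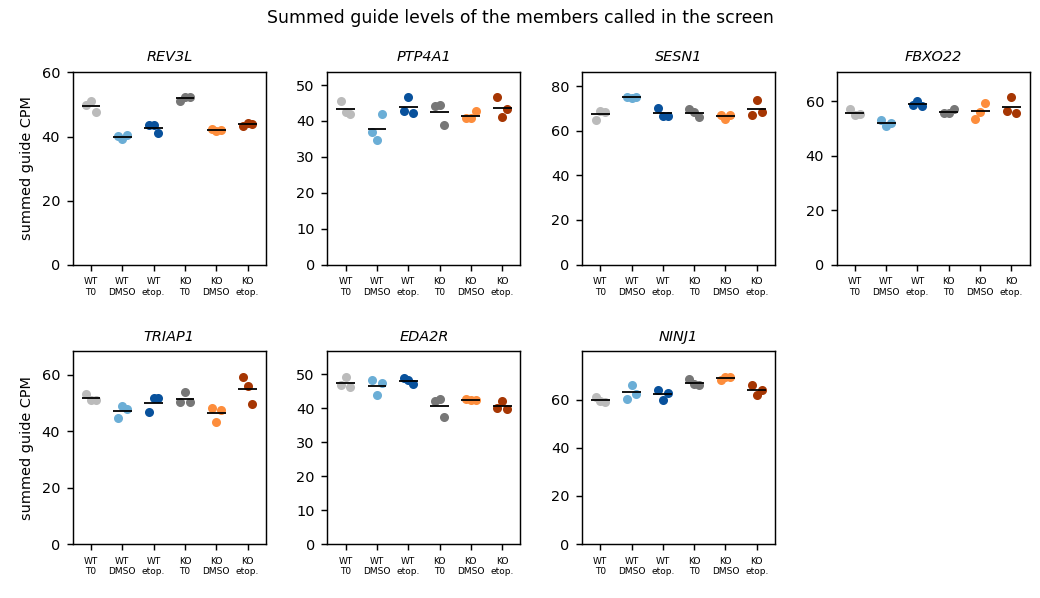
Summed guide counts, in CPM, of the 7 members called in any comparison within a cell line or between cell lines at T0, in each of the 18 screen libraries; points are libraries A, B and C, bars are means. REV3L guides drop from about 50 to about 40 CPM between T0 and DMSO in both cell lines, and EDA2R and NINJ1 differ between the cell lines.

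Before treatment, KO against WT cells at T0 differed in 1 member higher and 1 lower (2.63% each), beside 2.4% and 2.14% of all genes. Guides against EDA2R were at 46.7, 49.3 and 46.3 CPM in WT and 42.2, 42.7 and 37.4 CPM in KO cells (-0.22 ± 0.06, adjusted p = 0.012, 4 of 5 guides lower). Guides against NINJ1 were at 61.2, 59.2 and 59.1 CPM in WT and 68.4, 66.4 and 66.1 CPM in KO cells (0.16 ± 0.05, adjusted p = 0.0272, 6 of 6 guides higher). Neither pair of groups overlapped, which is no further support because the same libraries gave the calls. NINJ1 was no longer called without any 1 of the 6 libraries (adjusted p = 0.0542 to 0.113), and EDA2R was not called without WT library B (adjusted p = 0.1) or KO library C (adjusted p = 0.156). Differences at T0 include any that arose when guides were introduced into the 2 cell lines, which cannot be told apart from later growth. Guides against MDM2 were higher in KO cells (0.45 ± 0.07, adjusted p = 3.62e-05). With scaling to the non-targeting guides, the split of all genes moved from 458 higher and 407 lower to 1961 and 155, and that of the members to 3 higher (NINJ1, ANKRA2 and BTG2) and 1 lower (EDA2R). Among single guides, 2 of the 213 were called at T0 (0.939%), beside 2.67% of all guides: 1 against ASCC3 (-0.43, adjusted p = 0.035) and 1 against TNFRSF10C (-0.57, adjusted p = 0.0146).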

How the data were processed

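The deposited RNA table holds raw counts per gene symbol in 10 libraries and the deposited screen table holds raw counts per guide in 18 libraries. Per the submitters' processing notes, the screen was handled with Bowtie2 and DESeq2, and the RNA with DESeq2 and build hg19. The sources used here do not give the RNA aligner, the strand setting, the annotation or the guide library. A deposited table of the authors gives log2 fold changes and adjusted p-values which, per the file headers, have the column names of DESeq2; its log2 values match the contrast of KO-etoposide with WT-etoposide medium (r = 1.0 across 13604 genes).

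Groups were read from sample titles. Members and gene lists were chosen with earlier results of these data known. Levels are CPM on library sizes scaled by TMM (factors 0.959 to 1.051 in the RNA and 0.991 to 1.003 in the screen), and RPKM use the deposited length. Tests were edgeR 4.0.16 quasi-likelihood F tests (R 4.3.3, filterByExpr, Benjamini-Hochberg adjustment over all genes tested, threshold 0.05), with all libraries of an assay in 1 fit and guide counts summed per gene; ± gives the SE. The fit was tested on simulated counts. Named are, per comparison, up to 8 highest and 8 lowest called members and the smallest p in each role. Alternatives were no filter, DESeq2 1.42.0, only the libraries compared, the replicate letter as a block, each library left out and, in the screen, scaling to non-targeting guides and limma 3.58.1 on mean log2 CPM. Single symbols are as deposited; COP1 was not matched in either table and PIDD1 not in the screen. Guide sequences are not used here.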

Additional observations from a re-analysis of the deposited data

Results flagged for a closer look

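The rise of 3 members with etoposide medium differed between KO and WT donors in the test of the difference itself (edgeR's quasi-likelihood test, rise with KO donors minus rise with WT donors). TP53I3, a quinone oxidoreductase, rose by 0.94 with WT donors and by 0.38 with KO donors, a difference of -0.56 ± 0.10 on the log2 scale (adjusted p = 0.0104). GADD45A, a stress protein of arrest and repair, rose by 1.44 and 0.89, a difference of -0.55 ± 0.11 (adjusted p = 0.0173). PTP4A1, a phosphatase, rose by 0.87 and 1.30, a difference of 0.44 ± 0.11 (adjusted p = 0.0393). Each difference had the same sign without any 1 of the 8 libraries, and each lost its call without at least 4 of them in turn.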

How the results depend on the processing

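With each library of a comparison left out in turn, the count of called members ran from 32 to 33 for WT-etoposide and from 34 to 36 for KO-etoposide against DMSO medium, from 3 to 6 for KO against WT donors with etoposide and from 0 to 10 with DMSO, from 0 to 11 for the difference between the rises, and from 17 to 19 and 21 to 27 for DMSO medium against T0 with WT and KO donors. All genes called ran from 776 to 1055 in place of 2166 for KO against WT donors with etoposide, from 0 to 3047 in place of 240 with DMSO, and from 30 to 1654 in place of 326 for the difference between the rises. In the screen the count of called members ran from 0 to 2 and 0 to 1 for etoposide in WT and KO cells. It ran from 1 to 3 and 1 to 1 for growth, from 0 to 1 at T0, and was 0 for both differences between cell lines. All genes called in the screen ran from 256 to 418 and 519 to 682 for etoposide in WT and KO cells. They ran from 853 to 1132 and 431 to 565 for growth and from 328 to 409 at T0. For the etoposide and growth differences between cell lines they ran from 5 to 20 and 0 to 4. With only the libraries compared in the fit, 0 members were called for KO against WT donors with DMSO and 1 for etoposide in WT cells; with no filter on low counts, 5 for the difference between the rises. With limma on mean log2 CPM of guides, 1 member was called for etoposide in WT cells and 1 at T0, and the difference of the XPC guides between cell lines was 0.02 in place of -0.06, neither being called. Scaling to non-targeting guides gave 6 and 2 members for growth in WT and KO cells and 4 at T0. Of all genes, the 240 called for KO against WT donors with DMSO became 1186 with no filter, 389 with the replicate block and 2 with only the libraries compared, and the 326 for the difference between the rises became 791 with no filter and 114 with only the libraries compared. In the screen, only the libraries compared gave 504 in place of 805 for etoposide in KO cells, 6 in place of 10 for its difference between cell lines and 2065 in place of 865 at T0. That difference also became 18 with the replicate block, 48 with DESeq2 and 19 with non-targeting scaling, and 1 call of the growth difference became 2, 11 and 10, and 6 with limma. Non-targeting scaling gave 993 in place of 416 for etoposide in WT cells, 3054 in place of 1247 and 1586 in place of 652 for growth, and 2116 in place of 865 at T0. The cause of these shifts was not tested. The letters A, B and C did not pair the libraries (correlation of deviations -0.1 to 0.19 between RNA libraries and -0.05 to 0.17 between screen libraries with the same letter), and the replicate block changed the call of 1 member: it called REV3L, and so 35 members, with WT-etoposide medium.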

Other observations

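Genes of the pathway outside the members moved with DMSO medium too. Of the 20 cell cycle genes known to be repressed through p53, p21 and the DREAM complex, 15 rose and 1 fell with WT-DMSO medium against T0 (median 0.46) and 13 rose and 1 fell with KO-DMSO medium (median 0.38). CDC20, an activator of the anaphase-promoting complex, rose by 0.68 ± 0.07 and 0.81 ± 0.07 and the mitotic kinase PLK1 by 0.75 ± 0.08 with each donor. Of 9 measured p53 targets that encode secreted proteins, 1 rose and 6 fell with WT donors (median -1.48) and 0 rose and 6 fell with KO donors (median -1.09), where 1 was higher at an unadjusted p of 0.05 and 0 with DESeq2. GDF15 fell by 2.66 ± 0.24 and 2.41 ± 0.23. Of all genes, 17.8% were higher and 17.6% lower with WT-DMSO medium against T0, and 18.1% and 18.7% with KO-DMSO medium. The median of all genes was 0.00 and -0.01, and the T0 libraries are in both comparisons.

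In the screen, guides against TOP2A, which encodes the enzyme that etoposide traps, rose with etoposide by 0.32 ± 0.06 (adjusted p = 0.000197) in WT cells and by 0.58 ± 0.06 (adjusted p = 9.39e-13) in p53 KO cells. Guides against PMAIP1 (NOXA), a p53 target of apoptosis, rose with etoposide in KO cells by 0.29 ± 0.05 (adjusted p = 2.65e-06) and changed by 0.08 ± 0.05 (adjusted p = 0.51) in WT cells. Guides against PPM1D rose with etoposide in WT cells by 0.24 ± 0.06 (adjusted p = 0.00751), and in KO cells they changed by -0.05 ± 0.06 (adjusted p = 0.706). The difference between the cell lines (KO minus WT) was 0.26 ± 0.09 for TOP2A (adjusted p = 0.24), 0.21 ± 0.07 for PMAIP1 (adjusted p = 0.195) and -0.29 ± 0.08 for PPM1D (adjusted p = 0.147), none of them called.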
